A study of Mus musculus with 6 samples.

Results

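Expression of 8 genes of thyroid hormone action, Dio2, Dio3, Slco1c1, Crym, Thra, Thrb, Hr and Klf9, was examined in tissue labelled hypothalamus from DIO mice that had received the Kdm6 inhibitor GSK-J4 or vehicle. The genes were taken by name, as all probes that the scanner output assigns to 1 of these symbols, and account for 14 of 56605 probes and 8 of 37074 gene names. Each of 6 Agilent SurePrint G3 mouse arrays was hybridized in 1 colour with RNA of 1 sample, 3 labelled GSK-J4 at 30 mg/kg and 3 labelled vehicle, and each sample came from a different mouse. All were male C57BL/6J DIO mice without a genetic modification in the labels, made obese from 6 weeks of age by a diet with 60 kcal% fat for 16 weeks, with tissue taken at ZT 6, counted in hours after lights on. GEO's design text places the tissue at 4 d after exposure, while the paper describes longer courses and leaves the day of the arrayed animals unstated. GSK-J4 inhibits the demethylases that remove methyl groups from lysine 27 of histone H3, the Kdm6 family, and was given to the whole animal. The arrays measured RNA of a bulk tissue, in which fewer cells of a type and less RNA per cell cannot be told apart.

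Thyroid hormone reaches the brain mostly as thyroxine, a prohormone, which carriers bring across the blood-brain barrier and into glial cells. Deiodinases in glia convert it to triiodothyronine, the active hormone, while another deiodinase in neurons destroys both. Triiodothyronine binds nuclear receptors that sit on DNA, mostly as heterodimers with retinoid X receptors, and exchange corepressors for coactivators once the hormone is bound. In the hypothalamus this local activation is best known in tanycytes, the glial cells that line the third ventricle, where it takes part in the feedback of thyroid hormone on Trh neurons and in seasonal physiology.

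Most of the transcripts that define the hypothalamus were not well above background on every array. Of 10 hypothalamic markers, 3 were well above background on all 6 arrays on at least 1 probe (Oxt, Hcrt and Pomc, the last with log2 signals of 7.79 to 9.05), and Nkx2-1, Otp and Sim1, transcription factors of hypothalamic neurons, were so on 0 arrays. Avp, the vasopressin precursor, and Pmch, the precursor of melanin-concentrating hormone, passed on 3 arrays each. The log2 signal of the Avp probe lay between 3.42 and 5.44 over the 6 arrays. Gpr50, a receptor of tanycytes, passed on 0 arrays, whereas Rax, a tanycyte transcription factor, passed on 5. All 6 markers of cortex and hippocampus, among them Neurod6, Neurod2, Slc17a7, Emx1 and Tbr1, were well above background on all 6 arrays, and Neurod6, a transcription factor of forebrain excitatory neurons, lay between 11.78 and 12.46. The tissue is therefore given only as labelled hypothalamus, and values of the 8 genes are given as those of the RNA that was hybridized. The part that tissue composition plays in them was not tested.

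**Figure D1:**
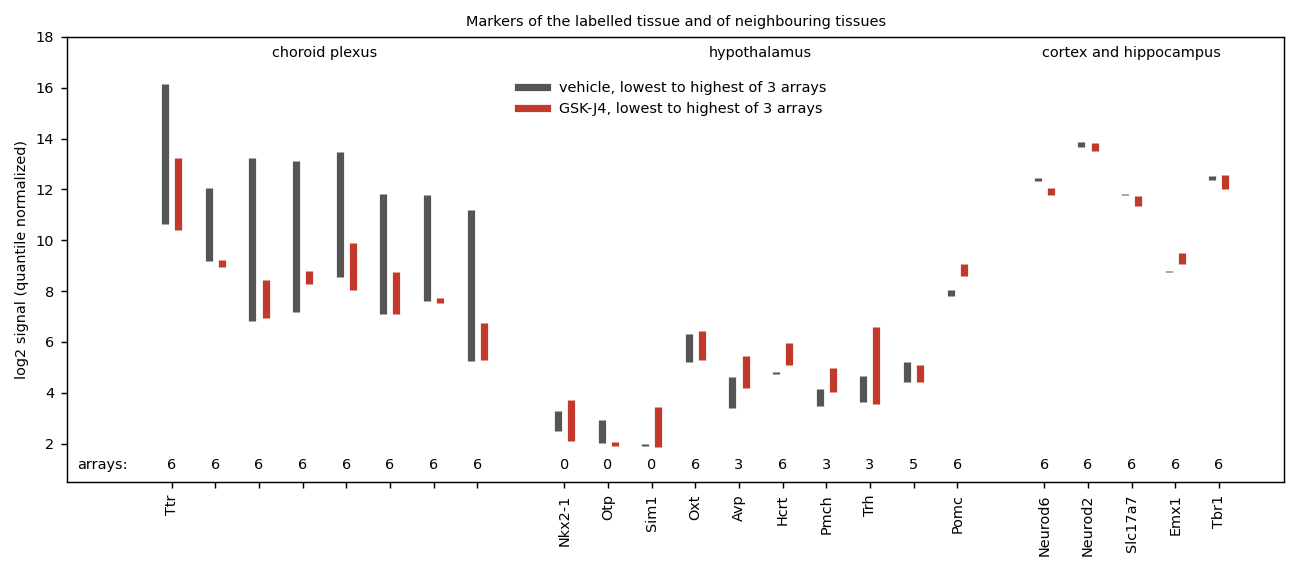
Log2 signal of the brightest probe of each marker, drawn from the lowest to the highest of 3 vehicle arrays (grey) and 3 GSK-J4 arrays (red), with the number of arrays on which any probe of the gene was well above background written under each, and names under those given in the text. Nkx2-1, Otp and Sim1 stand at 0 arrays and the markers of cortex and hippocampus at 6, and the vehicle bars of the choroid plexus markers are long because of vehicle array 1.

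Marker lists also differed between arrays. The summed signal of the 8 choroid plexus markers was 115957 on vehicle array 1 against 3403 and 3604 on vehicle arrays 2 and 3, and 3169 to 12701 on the GSK-J4 arrays. The summed signal of the 8 astrocyte markers was 53402 to 56958 on vehicle arrays and 58624 to 62938 on GSK-J4 arrays, which do not overlap, although 0 of the 8 genes passed the test (limma), and 5 of them lay above 0 and 3 below. Of the 10 hypothalamic markers, 4 had a probe well above background on all 3 arrays of a group (Oxt, Hcrt, Agrp and Pomc). The sum over these 4, of which Pomc was the brightest, was 342 to 374 on vehicle and 493 to 713 on GSK-J4 arrays. Of the 4, 1 was called higher (Pomc, by 0.85) and 0 lower (limma), beside 8.99% and 7.79% of all genes. Oxt, Agrp and Hcrt differed by 0.09, 0.10 and 0.81. The sum over the 6 cortical and hippocampal markers was 28435 to 30159 on vehicle and 25810 to 27306 on GSK-J4 arrays, with 1 called higher and 1 lower. That over the 5 kept markers of thalamus was 5677 to 6482 and 6802 to 8484, also without overlap, with 1 called higher and 0 lower. All vehicle arrays lie on 1 slide and all GSK-J4 arrays on another, each scanned on its own, so slide and treatment cannot be told apart. The 75th percentile of the spot signal was 406 to 461 on GSK-J4 and 787 to 916 on vehicle arrays, and the share of probes well above background was 57.7% to 58.7% on the former against 62.8% to 63.6% on the latter.

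All probes are 60 bases long and were placed by the files on mm9. Most of the 14 read a single unbroken stretch of the genome. The 3 probes shown next, 2 of Thra and 1 of Slco1c1, are printed because each was set against another probe of its gene and they include both compared probes that cross an intron.
Thra A_66_P102879: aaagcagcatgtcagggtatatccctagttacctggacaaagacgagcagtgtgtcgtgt
Thra A_52_P666930: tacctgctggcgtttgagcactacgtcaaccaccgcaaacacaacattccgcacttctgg
Slco1c1 A_51_P261713: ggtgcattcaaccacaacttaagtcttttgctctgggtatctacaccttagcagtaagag
The first spans chr11:98617475-98618281 on the plus strand and the third chr6:141511731-141513094 on the plus strand, lengths of 807 and 1364 bases so that each joins exons across an intron, and the second lies at chr11:98625642-98625701 on the plus strand in 1 piece.

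Promoters were looked up because Dio2 is known to be induced through cAMP and several of the other genes by thyroid hormone itself. RefSeq start sites on GRCm38.p6 were listed for 5 of the 8 genes, in 6 entries. The 250 bases before the start are printed for both deiodinases and for 1 of the entries of Thrb, with capitals marking the letters searched.
Dio2 promoter: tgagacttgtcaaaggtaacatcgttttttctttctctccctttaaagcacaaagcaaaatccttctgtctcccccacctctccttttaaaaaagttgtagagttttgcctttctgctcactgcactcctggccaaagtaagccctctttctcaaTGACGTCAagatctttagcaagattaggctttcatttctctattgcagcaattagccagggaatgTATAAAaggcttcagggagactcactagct
Dio3 promoter: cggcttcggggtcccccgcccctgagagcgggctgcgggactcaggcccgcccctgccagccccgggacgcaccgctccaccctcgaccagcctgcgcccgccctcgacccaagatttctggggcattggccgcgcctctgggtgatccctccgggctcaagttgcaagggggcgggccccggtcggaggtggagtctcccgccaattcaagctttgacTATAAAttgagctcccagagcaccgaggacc
Thrb promoter: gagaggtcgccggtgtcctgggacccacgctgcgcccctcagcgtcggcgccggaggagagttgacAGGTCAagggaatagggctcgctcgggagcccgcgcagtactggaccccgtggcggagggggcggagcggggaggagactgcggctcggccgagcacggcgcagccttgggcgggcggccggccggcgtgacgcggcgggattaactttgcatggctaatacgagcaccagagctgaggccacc
The Dio2 window, chr12:90739039-90739288 on the minus strand, holds TGACGTCA, the letters of the cAMP response element, from 95 to 88 bases before the start, and TATAAA from 30 to 25 bases before it. The 8 letters of the cAMP response element stand in 1.55% of 32851 mouse promoter windows of this length, and TATAAA in 12.4%, both strands searched. The Dio3 window, chr12:110278980-110279229 on the plus strand, holds TATAAA from 31 to 26 bases before the start and no TGACGTCA. The Thrb window, chr14:17660710-17660959 on the plus strand, holds AGGTCA, the hexamer that thyroid hormone receptors bind, from 184 to 179 bases before the start, letters found in 14.0% of windows. None of the other entries holds AGGTCA, the second entry of Thrb included. A repeat of AGGTCA in 1 direction with 4 bases between the copies was found in none of the 6 entries and in 0.0152% of all windows. These are matches of letters, and no binding was measured.

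Of the 14 probes, 13 passed the background flag on every array and entered the comparison of GSK-J4 with vehicle by limma over 34443 kept probes. 1 probe, of Hr, was higher on GSK-J4 arrays at an adjusted p of at most 0.05, and 0 were lower, where 8.39% of all kept probes were called higher and 8.42% lower. At an unadjusted p under 0.05, 3 probes were higher (Dio2, Thrb A_51_P388835 and Hr) and 1 was lower (Klf9 A_65_P07684), which is 4 of 13, where 19.5% of all kept probes were higher and 17% lower at that p. These 4 are also the probes whose 3 GSK-J4 values do not overlap the 3 vehicle values, a pattern that 45.6% of all kept probes show. The differences of the 13 probes ran from -0.97 to 0.67 on the log2 scale, with 7 above 0 and 6 below, and their median of 0.01 stood beside a median of 0.02 over all kept probes. At fold 1.5 and unadjusted p 0.05, the thresholds of the study's methods, the methods' t-test passed 2 probes as higher (Hr and Thrb A_51_P388835) and 0 as lower, beside 3.98% and 6.59% of all kept probes.

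**Figure D2:**
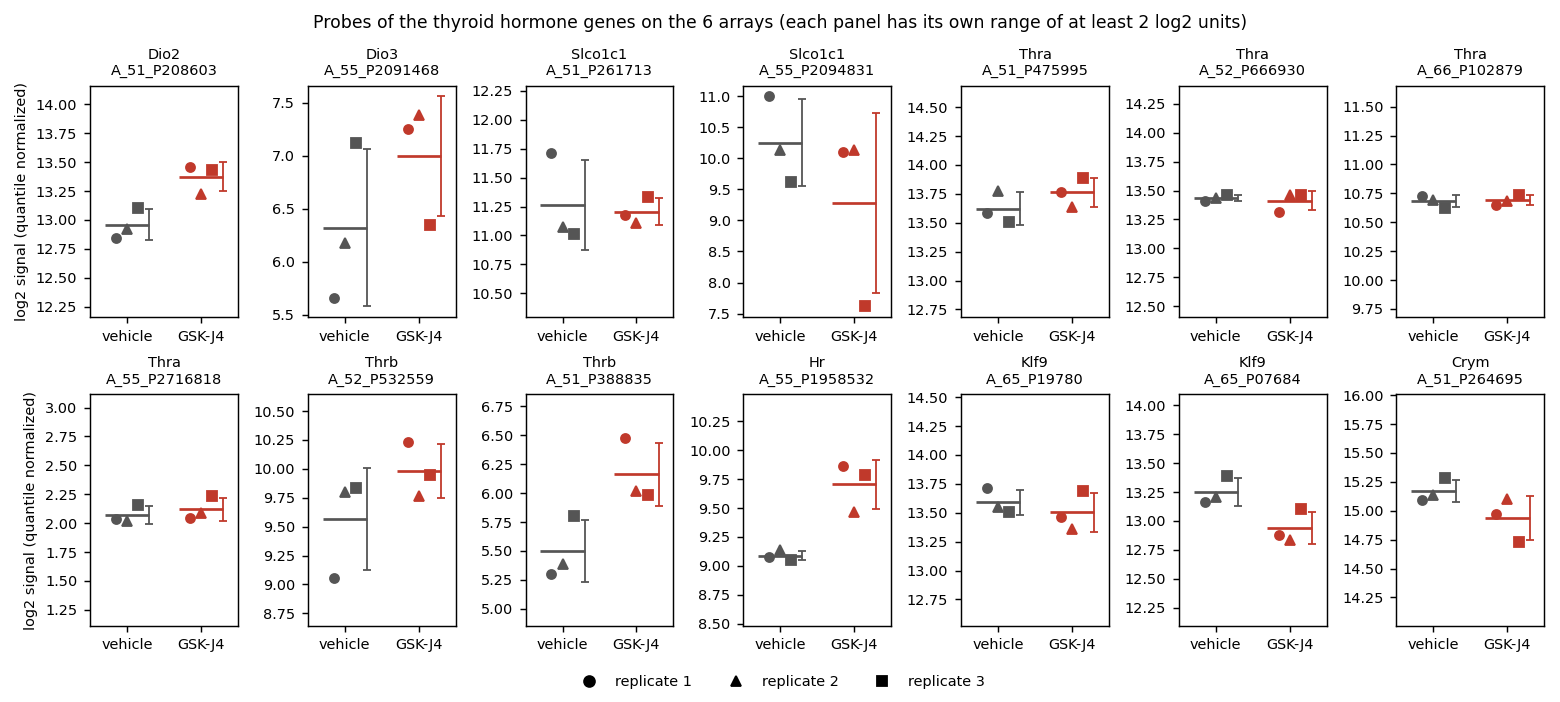
Deposited log2 signal of each of the 14 probes on the 6 arrays, 1 panel per probe, with vehicle in grey and GSK-J4 in red, symbols for the replicate number, horizontal lines at the group means and bars of 1 SD (n = 3). The groups are apart in the panels of Dio2, Thrb A_51_P388835, Hr and Klf9 A_65_P07684, and GSK-J4 array 3 lies far below the others in the panel of Slco1c1 A_55_P2094831.

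**Figure D3:**
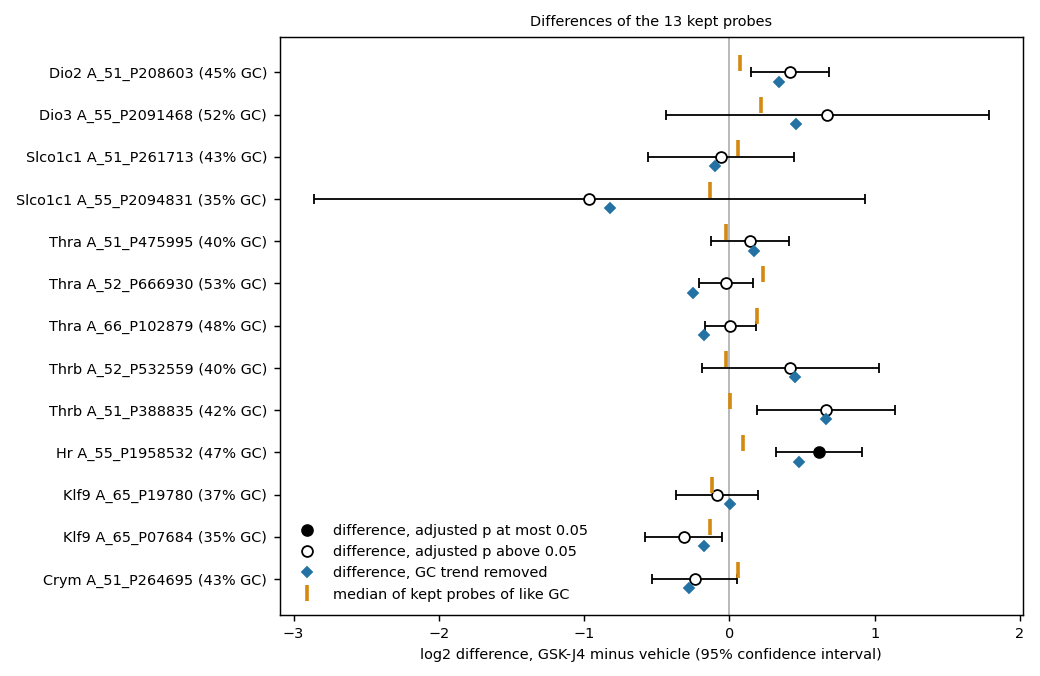
Log2 difference, GSK-J4 minus vehicle, of the 13 probes that were compared, with the 95% confidence interval, beside the difference with the trend on GC content taken out (blue) and the median difference of all kept probes of like GC content (orange). Hr at 0.61 is the 1 filled point, and the intervals of Dio2, Thrb A_51_P388835, Hr and Klf9 A_65_P07684 leave out 0.

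Dio2 encodes the type 2 deiodinase, which makes triiodothyronine from thyroxine in glial cells. Its probe (A_51_P208603, chr12:91963235-91963294, minus strand) gave log2 signals of 13.46, 13.23 and 13.43 on GSK-J4 arrays 1, 2 and 3 and of 12.84, 12.92 and 13.10 on vehicle arrays 1, 2 and 3. The lowest GSK-J4 value stood above the highest vehicle value. The difference was 0.42 ± 0.11 (SE, n = 3 per group; 95% confidence interval 0.15 to 0.68), a ratio of 1.34, with an adjusted p of 0.051 over all probes by limma and an exact permutation p of 0.1, the smallest that 3 arrays against 3 allow. In the fit with 1 probe per gene name the adjusted p of the same probe was 0.049 (limma, 22117 genes), with an SE of 0.105 in place of 0.108, so that the call depends on whether probes or genes were fitted. It was 0.018 with 75th percentile scaling, which gave a difference of 0.65, and 0.086 once the GC trend was removed, with a difference of 0.34. Summed astrocyte markers, with 5 of 8 genes above 0 and 3 below, also had larger values on the GSK-J4 arrays. The sum over the 5 tanycyte markers kept, Dio2 and Crym aside, overlapped between groups. It was 6057 to 8411 on vehicle and 6014 to 6495 on GSK-J4 arrays. Of the 5, 1 was called higher and 0 lower (limma), beside 8.99% and 7.79% of all genes. The called gene, Rax, was dim, at 3.86 to 5.55. It was well above background on 2 vehicle and 3 GSK-J4 arrays, so it was kept only through the group where it is higher. The part of either cell type in the Dio2 difference was not tested.

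Dio3 encodes the type 3 deiodinase, which inactivates both hormones and is the counterpart of Dio2. Its probe (A_55_P2091468, chr12:111518792-111518851, plus strand) gave 7.26, 7.38 and 6.34 on GSK-J4 arrays 1, 2 and 3, and 5.66, 6.18 and 7.12 on vehicle arrays 1, 2 and 3. Arrays of both groups were spread over more than a log2 unit and overlap, with GSK-J4 array 3 among the vehicle values. The difference of 0.67 ± 0.45 (SE) did not pass (adjusted p = 0.32 by limma), and its 95% interval of -0.44 to 1.79 lies on both sides of 0. Leaving out single arrays moved it between 0.34 without vehicle array 1 and 1.08 without vehicle array 3.

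Slco1c1 encodes the carrier of thyroxine in brain endothelium and astrocytes, and its 2 probes behaved unlike each other on single arrays. Probe A_51_P261713, printed above, gave 11.18, 11.11 and 11.34 on the GSK-J4 arrays and 11.71, 11.07 and 11.01 on the vehicle arrays. Vehicle array 1, the array with the high choroid plexus markers, was the highest, and the other 5 arrays lay close together. The difference was -0.06 ± 0.20 (SE, 95% interval -0.56 to 0.44, adjusted p = 0.85 by limma), and it turned to 0.17 without vehicle array 1 and to 0.06 with 75th percentile scaling. Probe A_55_P2094831 (chr6:141518164-141518223, plus strand) gave 10.11, 10.13 and 7.62 on the GSK-J4 arrays and 11.00, 10.13 and 9.62 on the vehicle arrays. GSK-J4 array 3 was low on this probe, with a spot signal of 128 against 862 and 858 on the other GSK-J4 arrays, and 0 of the outlier and saturation flags read for the spot were set. The same array was the highest GSK-J4 array on the other probe. The difference of -0.97 ± 0.77 (SE, adjusted p = 0.40 by limma) shrank to -0.13 without that array. The change of one probe relative to the other within arrays had an exact permutation p of 0.5, and the 5 pairs of probes of 1 gene that were tested had Benjamini-Hochberg adjusted values of 0.375 to 0.5.

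Crym encodes mu-crystallin, which binds triiodothyronine in the cytosol. Its probe (A_51_P264695, chr7:127329970-127330029, minus strand) gave 14.97, 15.10 and 14.73 on the GSK-J4 arrays and 15.10, 15.14 and 15.28 on the vehicle arrays. GSK-J4 array 2 lay within the vehicle values and the other GSK-J4 arrays below them. The difference was -0.24 ± 0.12 (SE, adjusted p = 0.20 by limma, 95% interval -0.53 to 0.05), and it was 0.19 with 75th percentile scaling, so its direction depends on the scaling.

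Thra encodes the thyroid hormone receptor that predominates in brain, together with splice forms that do not bind the hormone. Probe A_66_P102879, which crosses an intron, gave 10.65, 10.69 and 10.74 on the GSK-J4 arrays and 10.73, 10.69 and 10.62 on the vehicle arrays. Probe A_52_P666930 gave 13.32, 13.46 and 13.46, and 13.40, 13.44 and 13.46. On both probes all arrays lay close together, and the differences of 0.01 ± 0.07 and -0.02 ± 0.07 (SE) had 95% intervals of -0.17 to 0.18 and -0.21 to 0.16. Their adjusted p-values by limma were 0.95 and 0.85. Their signs changed among the alternatives, the first to -0.18 without the GC trend and the second to 0.25 with 75th percentile scaling. Without the GC trend the second was -0.25 (adjusted p = 0.089 by limma). Kept probes of like GC content to the second had a median difference of 0.23, with 20.6% called higher. Probe A_51_P475995 (chr11:98626356-98626415, plus strand) gave 13.76, 13.64 and 13.89 against 13.58, 13.78 and 13.51. Its difference was 0.14 ± 0.11 (SE, adjusted p = 0.39 by limma), and relative to the other probes it changed by 0.16 and 0.13 with exact permutation p of 0.3 and 0.2. The fourth probe, A_55_P2716818, designed on a single transcript, stayed at background on all 6 arrays, at 2.02 to 2.23, and was not compared.

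Thrb encodes the other receptor, which carries much of the feedback on the pituitary and hypothalamus. Probe A_52_P532559 (chr14:18868800-18868859, plus strand) gave 10.23, 9.77 and 9.95 on the GSK-J4 arrays and 9.06, 9.80 and 9.84 on the vehicle arrays. Vehicle array 1 was the low one, and the other vehicle arrays lay among the GSK-J4 values. The difference of 0.42 ± 0.25 (SE, adjusted p = 0.27 by limma) was 0.16 without vehicle array 1. Probe A_51_P388835 (chr14:18866221-18866280, plus strand) gave 6.48, 6.02 and 5.99 on the GSK-J4 arrays and 5.30, 5.39 and 5.80 on the vehicle arrays, with no overlap. The difference was 0.67 ± 0.19 (SE, 95% interval 0.19 to 1.14), a ratio of 1.59, with an adjusted p of 0.066 by limma and an exact permutation p of 0.1. It stayed above 0 in all 17 alternatives in which it was computed, from 0.35 to 0.82, with adjusted p-values of 0.056 to 0.18. Both probes are annotated to the same RefSeq transcripts, and their changes relative to each other differed by -0.25 with an exact permutation p of 0.3.

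Hr encodes hairless, a nuclear corepressor and one of the best known direct targets of triiodothyronine in brain. Its probe (A_55_P1958532, chr14:70973263-70973322, plus strand) gave 9.86, 9.46 and 9.79 on GSK-J4 arrays 1, 2 and 3 and 9.08, 9.13 and 9.05 on vehicle arrays 1, 2 and 3. The vehicle arrays lay close together and every GSK-J4 array stood above them. The difference was 0.61 ± 0.12 (SE, n = 3 per group; 95% interval 0.32 to 0.91), 1.53-fold higher, with an adjusted p of 0.029 by limma and an exact permutation p of 0.1. The probe holds 46.7% GC, and the 9038 kept probes within 1 base of it in GC content had a median difference of 0.09, with 9.86% of them called higher. With the GC trend removed the difference was 0.48 and the adjusted p 0.052. The call was lost in 9 of the 17 alternatives, among them all but 1 of the 6 in which an array was left out, with adjusted p-values of 0.059 to 0.097 there and differences of 0.54 to 0.64. Without GSK-J4 array 2 the difference was 0.74 and the adjusted p 0.019. Over all kept probes, leaving out 1 vehicle array left 1 to 2 called higher, and leaving out 1 GSK-J4 array 973 to 2075.

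Klf9 encodes a zinc finger transcription factor that responds to triiodothyronine and to glucocorticoids. Probe A_65_P07684 (chr19:23242324-23242383, plus strand), whose records hold no RefSeq transcript, gave 12.88, 12.84 and 13.10 on the GSK-J4 arrays and 13.16, 13.21 and 13.39 on the vehicle arrays, with no overlap, and GSK-J4 array 3 just below the lowest vehicle array. The difference was -0.32 ± 0.11 (SE, 95% interval -0.58 to -0.05, adjusted p = 0.096 by limma, exact permutation p = 0.1). This probe holds 35% GC, and probes of like GC content had a median difference of -0.13, with 14.4% called lower. Probe A_65_P19780 (chr19:23240410-23240469, plus strand), designed on the RefSeq transcript, gave 13.47, 13.36 and 13.69 against 13.71, 13.55 and 13.50, which overlap. Its difference of -0.09 ± 0.11 (SE, adjusted p = 0.62 by limma) was 0.19 with 75th percentile scaling and 0.0015 without the GC trend. Of the 3 probes of Hr and Klf9, both known as targets of triiodothyronine, the Hr probe passed the test and the Klf9 probes did not.

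**Figure D4:**
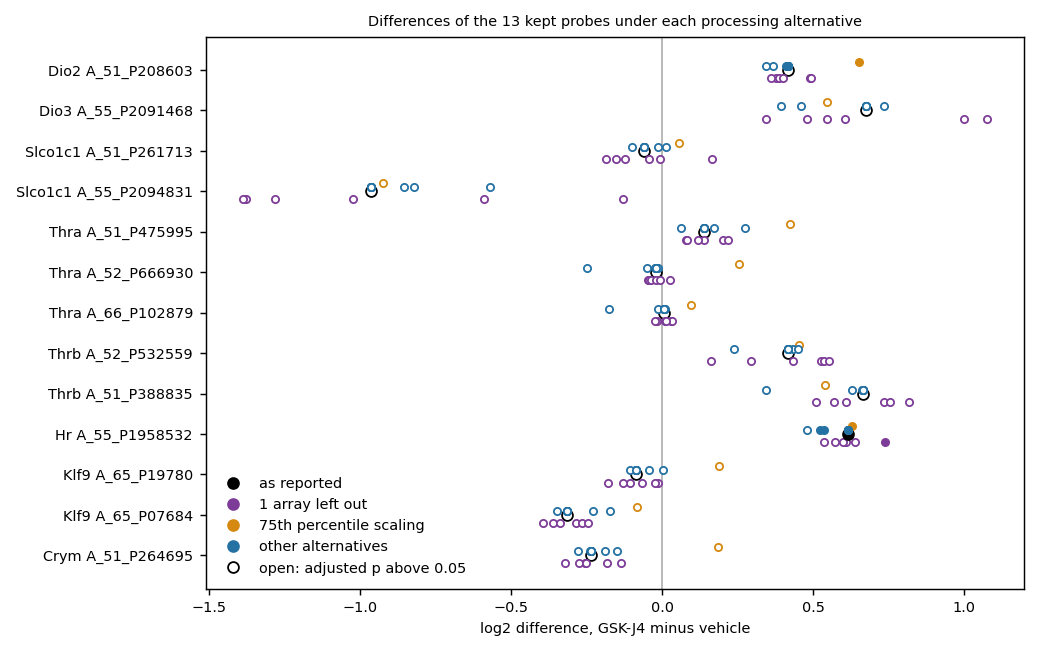
Log2 difference, GSK-J4 minus vehicle, of the 13 probes as reported (black), with 75th percentile scaling (orange), with 1 array left out (purple) and under the other alternatives (blue), filled where the adjusted p was at most 0.05. Dio2, Dio3, Thra A_51_P475995, both Thrb probes and Hr stay to the right of 0, Slco1c1 A_55_P2094831 and Klf9 A_65_P07684 to the left, and filled points occur for Dio2 and Hr alone.

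Across the 6 arrays the brightest probes of Dio2 and Hr ran together with a Pearson r of 0.93, and Dio2 and Thrb with 0.80. Dio3 and Klf9 ran against each other with -0.88, Thra and Crym with -0.84, and Hr and Crym with -0.82. These are the pairs of members with the largest r of either sign, picked from all pairs. They describe 6 arrays that share the split into groups and slides. Among 20202 genes measured above background throughout, the patterns most like Dio2 were those of Sec14l3 and Zmiz1os1 (r = 0.998 and 0.997), and the one most like Hr was that of Shc3 (0.999). For Slco1c1 Erbb3 (0.995), for Thrb Entpd4 (0.993), for Crym Pnma2 (0.996), for Dio3 Tmed2 (0.988) and for Klf9 Prkcz (0.985) were among the 2 nearest names.

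The wider pathway was described with 58 further genes, of which 53 were kept. On the scale of 1 probe per gene, 2 were higher in GSK-J4 and 0 were lower (limma), against 8.99% higher and 7.79% lower of all 22117 genes. At an unadjusted p under 0.05 the counts were 11 and 2 of 53, beside 20.6% and 16% of all genes. The median difference of the 53 genes was 0.12 and that of all genes 0.04. Of the 8 genes themselves, Dio2 and Hr were called on this scale.

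**Figure D5:**
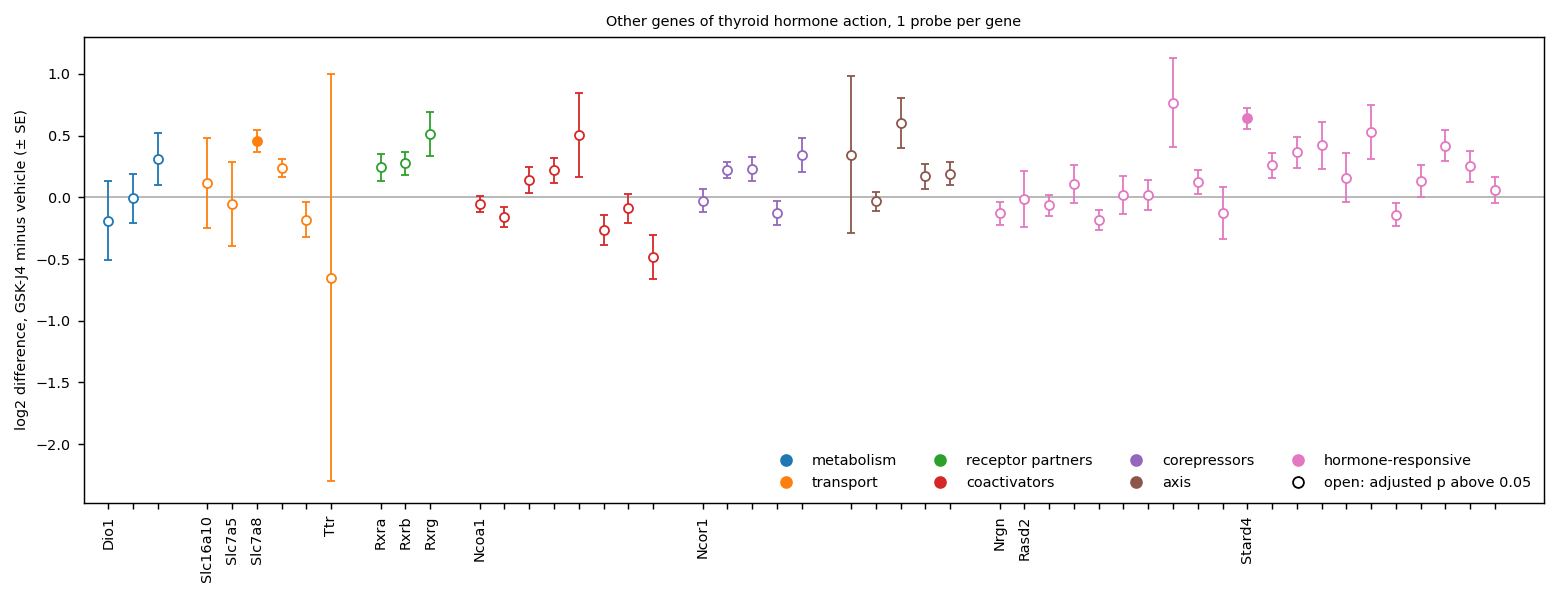
Log2 difference, GSK-J4 minus vehicle, with its SE for other pathway genes, coloured by role, with names under those given in the text, and filled where the adjusted p over all genes was at most 0.05. Slc7a8 at 0.46 and Stard4 at 0.64 are the filled points, and Ttr has the widest bar.

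Among genes of transport, 1 of 7 was called higher and 0 lower, beside 8.99% and 7.79% of all genes. Slc7a8, an amino acid carrier that also moves thyroid hormone and is named here after its value was seen, gave 10.49, 10.35 and 10.45 on GSK-J4 and 9.89, 9.92 and 10.11 on vehicle arrays, a difference of 0.46 ± 0.09 (SE, adjusted p = 0.027 by limma). Without vehicle array 1 its adjusted p was 0.084 over all probes (limma), a fit in which 2 of 34443 probes were called higher. Without vehicle array 2 or 3 that count was 1, so the loss of a call is not particular to this gene or array. A dimmer kept Slc7a8 probe (A_55_P2883452) differed by 0.77 ± 0.28 (SE) and did not pass, with an adjusted p of 0.11 over all probes (limma). Ttr, the thyroxine carrier secreted by the choroid plexus, gave 13.24, 10.42 and 12.03 against 16.15, 10.66 and 10.85, in the same order as the choroid plexus sums, of which it is a member. Its difference of -0.65 ± 1.65 (SE, adjusted p = 0.80 by limma) became 1.15 without vehicle array 1. Slc16a10 and Slc7a5 differed by 0.12 and -0.05 (adjusted p = 0.84 and 0.93 by limma). The Slc16a10 probe was well above background on 3 vehicle arrays and 1 GSK-J4 array. Another kept Slc16a10 probe (A_51_P448618) differed by 0.34 with an adjusted p of 0.064 over all probes (limma). Dio1, the deiodinase of liver and kidney, was well above background on 1 of the GSK-J4 arrays and all 3 vehicle arrays, with a difference of -0.19 (adjusted p = 0.70 by limma).

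The retinoid X receptors, partners of the thyroid hormone receptors, differed by 0.24 (Rxra), 0.27 (Rxrb) and 0.51 (Rxrg), with adjusted p-values by limma of 0.17, 0.092 and 0.099, so that 0 of 3 passed on the probe used and all 3 lay above 0. A dimmer Rxra probe (A_51_P307370) differed by 0.44 with an adjusted p of 0.030 over all probes (limma), which passes. For Rxrg, the values were 10.02, 9.98 and 9.92 on GSK-J4 and 9.10, 9.49 and 9.79 on vehicle arrays, without overlap. Of 8 coactivators and 6 corepressors 0 passed. Ncoa1, a steroid receptor coactivator, differed by -0.05, and the corepressor Ncor1, which silences targets of the receptor without hormone, by -0.03 (adjusted p = 0.60 and 0.86 by limma). That is the brightest of 8 kept Ncor1 probes, which ran from -0.38 to 0.23. The lowest adjusted p among the 8 was 0.059 over all probes (limma), at a difference of -0.30.

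Of 10 genes of the hypothalamic and pituitary axis, 5 were kept and 0 passed. Trh, the releasing hormone that defines this axis in the hypothalamus, was well above background on 1 vehicle and 2 GSK-J4 arrays, with log2 signals of 3.56 to 6.59, and was not kept. Tshr, the thyrotropin receptor, lay at 1.91 to 1.99 and was above background on 0 arrays.

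Of 21 further genes known to respond to the hormone, 1 was higher and 0 were lower, beside 8.99% and 7.79% of all genes. Of the 21, 15 lay above 0 and 6 below, with a median difference of 0.12 beside 0.04 over all genes. Stard4, a cholesterol transfer protein, gave 9.49, 9.29 and 9.40 on GSK-J4 and 8.71, 8.69 and 8.86 on vehicle arrays, without overlap. The difference was 0.64 ± 0.09 (SE, adjusted p = 0.016 by limma). Without vehicle array 1 it was 0.62 with an adjusted p of 0.064 over all probes (limma), where 2 of 34443 probes were called higher. Nrgn and Rasd2, neuronal genes that fall in the hypothyroid forebrain, differed by -0.13 and -0.02 (adjusted p = 0.34 and 0.97 by limma).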

How the data were processed

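RNA of 6 samples was measured on 1-colour Agilent SurePrint G3 mouse arrays. The authors extracted spot intensities with Feature Extraction (10.7.1.1) and deposited them with spot flags, and they deposited a table of quantile normalized log2 values made in GeneSpring, which was analysed here. Against the log2 spot intensities, each column correlated at 0.999 or above with its array and at 0.994 or below with the others, and 0 columns were unassigned. Probes were kept where all 3 arrays of either group were flagged well above background. Groups were compared by probe with lmFit and eBayes (limma 3.58.1, R 4.3.3), two-sided, without covariates, with Benjamini-Hochberg adjustment over 34443 probes, or over 22117 gene names with the probe of highest mean. A call needed an adjusted p of at most 0.05. Exact permutation tests enumerated the 20 orders of the arrays. The test was checked on simulated data. The members and lists were chosen with earlier results of these data known. Named genes were all probes of the 8 members, the pathway genes called at fold 1.5 or more, 15 pathway genes whatever their values, and the 2 genes most like each member, of which those without a gene symbol are not printed. A few named items are not reported here. Alternatives were the spot intensities normalized again, 75th percentile scaling, normexp with offset 50, other filters, variance models and tests, array weights, a GC correction (lowess, span 30%), the replicate block, and leaving out each array. Replicate numbers were not taken to pair the samples. Coordinates are on mm9 for probes and, for promoters, on GRCm38.p6. Array precision is limited by their number. The p-values measure the spread between mice of 1 slide each. No protein sequence or genome was used here.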

Additional observations from a re-analysis of the deposited data

How the results depend on the processing

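Of the differences of single probes computed under 17 alternatives each, 196 kept their direction and their side of the threshold, 4 gained the call (all of Dio2), 9 lost it (all of Hr) and 12 turned. Member probes called higher were 1 as reported and 2 with 75th percentile scaling, normexp, probes well above background on all 6 arrays only, the trended and robust variance model, and the thresholds of the methods by any of the t-test with or without equal variances and limma. They were 0 with adjusted p-values of either t-test, with the GC trend removed and with the replicate block, and 0 to 1 with 1 array left out. Pathway genes called higher were 2 as reported, 11 with 75th percentile scaling, 4 with normexp, 1 at the thresholds of the methods by either t-test, 0 by the adjusted t-test without equal variances and with the replicate block, and 0 to 3 with 1 array left out. Pathway genes called lower were 0 as reported, 1 with the GC trend removed, 2 with the mean of a gene's probes, and 0 to 1 with 1 array left out. The cause was not tested. Over all kept probes, 2889 were called higher and 2899 lower with all 6 arrays. Leaving out 1 vehicle array left 1 to 2 higher and 4 to 12 lower, leaving out 1 GSK-J4 array 973 to 2075 higher and 1429 to 2481 lower, and the replicate block 0 of either, with 11070 probes at an unadjusted p under 0.05.

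Turned differences with 75th percentile scaling were 0.056 (Slco1c1 A_51_P261713), 0.25 (Thra A_52_P666930), 0.19 (Klf9 A_65_P19780) and 0.19 (Crym). They were -0.014 for Thra A_66_P102879 with normexp, 0.014 for Slco1c1 A_51_P261713 with array weights, and -0.18 and 0.0015 for Thra A_66_P102879 and Klf9 A_65_P19780 with the GC trend removed. With 1 array left out, Thra A_52_P666930 ran from -0.047 to 0.025, Thra A_66_P102879 from -0.023 to 0.031 and Slco1c1 A_51_P261713 from -0.19 to 0.17. Over all kept probes 49.9% of calls were higher, against 39.7% with the GC trend removed and 58.1% of 8668 calls with 75th percentile scaling. Whether the replicate numbers shared by the labels pair the samples was not settled. Correlations of the deviations of same-numbered samples were 0.007, 0.026 and 0.081 for replicates 1, 2 and 3. The same-numbered sample was the best match for replicates 2 and 3 and not for replicate 1. The replicate block ended the calls of Hr, Slc7a8 and Stard4. Limits are 3 arrays per group, groups confounded with slides, signals lower on the GSK-J4 slide, and single probes for Dio2, Dio3, Hr and Crym.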
